A study of Homo sapiens with 6 samples.

Results

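The chaperones and heat shock proteins described here are the protein-coding genes of the HSPA, HSPB, HSPD, HSPE, HSPH, HSP90, DNAJA, DNAJB, DNAJC and CCT symbol series, with TCP1, TRAP1 and the heat shock factors HSF1 and HSF2. The rule uses symbols and the gene class only, though the set and its classes were drawn up with earlier results of these data known. The count table held 89 such genes among 19951 protein-coding genes and 58735 genes in all, and 82 of the 89 had enough counts to be tested. RNA had been sequenced from HCT-8, an established human colorectal adenocarcinoma line grown as a monolayer in serum-containing medium. The 3 control samples were untreated. The 3 treated samples had received 5-fluorouracil (5-FU), a pyrimidine analog that inhibits thymidylate synthase and enters RNA and DNA, at its 10% inhibitory concentration, which the labels liken to a continuous infusion. Its molar dose, like the exposure time, is not given in the sources used here. All samples come from 1 cell line, and the labels name no separate cultures within a group. The p-values therefore measure only how far these samples scatter, and that scatter may be technical.

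Chaperones bind unfolded or nascent proteins and help them reach or regain their fold. HSP70 proteins do so in cycles of ATP hydrolysis that J proteins (DNAJA, DNAJB and DNAJC) start and nucleotide exchange factors such as the HSP110 proteins reset; HSP90 acts later on clients such as kinases and steroid receptors, and the CCT ring encloses actin, tubulin and other substrates. Separate sets work in the cytosol, the endoplasmic reticulum (ER) and the mitochondrion. HSF1, when freed from chaperones by an excess of unfolded protein, binds heat shock elements in DNA and switches on the inducible forms, while constitutive forms serve growing cells continuously.

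Total counts per library ranged from 18459939 to 23495607. Mitochondrially encoded genes took 4.66% to 4.88% of the counts in the control libraries and 25.5% to 28.5% in the 5-FU libraries. All 10 colorectal epithelial markers had a mean level over 1 CPM (counts scaled to library size with TMM factors), and their summed level was 4927 to 6738 CPM in control and 3722 to 4603 CPM in 5-FU libraries. Summed markers of blood cells, 6 genes with HBB at 0, lay at 6.51 to 7.16 CPM in control and 5.48 to 7.15 CPM in 5-FU libraries. The 6 fibroblast markers summed to 15.7 to 20.2 and 34.3 to 64.6 CPM, with DCN and LUM at 0, and the 4 endothelial markers to 2.17 to 3.12 and 3.55 to 5.55 CPM. Most of the fibroblast sum was COL1A1, at 13.1 to 18.8 CPM in control and 31.5 to 60.9 CPM in 5-FU libraries. PDGFRB did not pass the test (edgeR log2 fold change 0.23). Most of the blood sum was CD14, at 6.15 to 7.06 CPM in control and 5.06 to 6.63 CPM in 5-FU libraries. The part of other cells in the results was not tested. For the mitochondrial share, only a fit without mitochondrially encoded genes was run, and it left the calls of all 50 named genes as they were.

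Most chaperone transcripts fell after 5-FU, and a small set that includes the stress-inducible HSP70 genes rose. Of the 82 tested genes, 45 fell, 16 rose and 21 did not pass the test (edgeR, adjusted p under 0.05). Over all 19771 genes tested, 70.2% were called, 36.3% as higher and 33.9% as lower, against 19.5% and 54.9% of the chaperones. The median log2 fold change was -0.44 for the chaperones, with a range from -2.18 to 5.65, and 0.09 for all tested genes. Group ranges did not overlap for 65 of the 82, against 74.3% of all tested genes. In bulk RNA, fewer cells of a type and less RNA per cell cannot be told apart.

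Genes that fell had higher control levels than genes that rose. Per kilobase of gene length (RPKM), the 45 that fell had a median control level of 26.7 and the 16 that rose had 1.28. All tested genes were ordered by mean level and cut into 5 groups of equal size. In the group of highest level, 60.3% of all genes fell and 17.8% rose, with a median log2 fold change of -0.53, and of the 35 chaperones in it 29 (82.9%) fell and 2 rose, with a median of -1.01. In the next lower groups 53.5%, 38.2% and 12.5% of all genes fell and 20.7%, 30.9% and 54.2% rose, while 10 of 16, 6 of 18 and 0 of 6 chaperones fell and 2, 5 and 2 rose. In the lowest group 5.08% of all genes fell and 57.7% rose, and 0 of 7 chaperones fell and 5 rose. The plot of fold changes shows each gene by group.

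The summed level of all 89 genes was 17138, 13485 and 20520.1 CPM in the control libraries and 6806, 6721 and 8808 CPM in the 5-FU libraries, which is 2.29-fold lower. As a share of the raw counts this was 1.63%, 1.35% and 1.92% against 0.710%, 0.698% and 0.903%. The split depended on scaling: with upper-quartile factors, which moved the median of all genes to 0.45, 28 rose and 31 fell, and with plain library totals, at a median of 0.20, 21 rose and 41 fell. With a minimum mean count of 50 the numbers were 21 and 37.

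**Figure D1:**
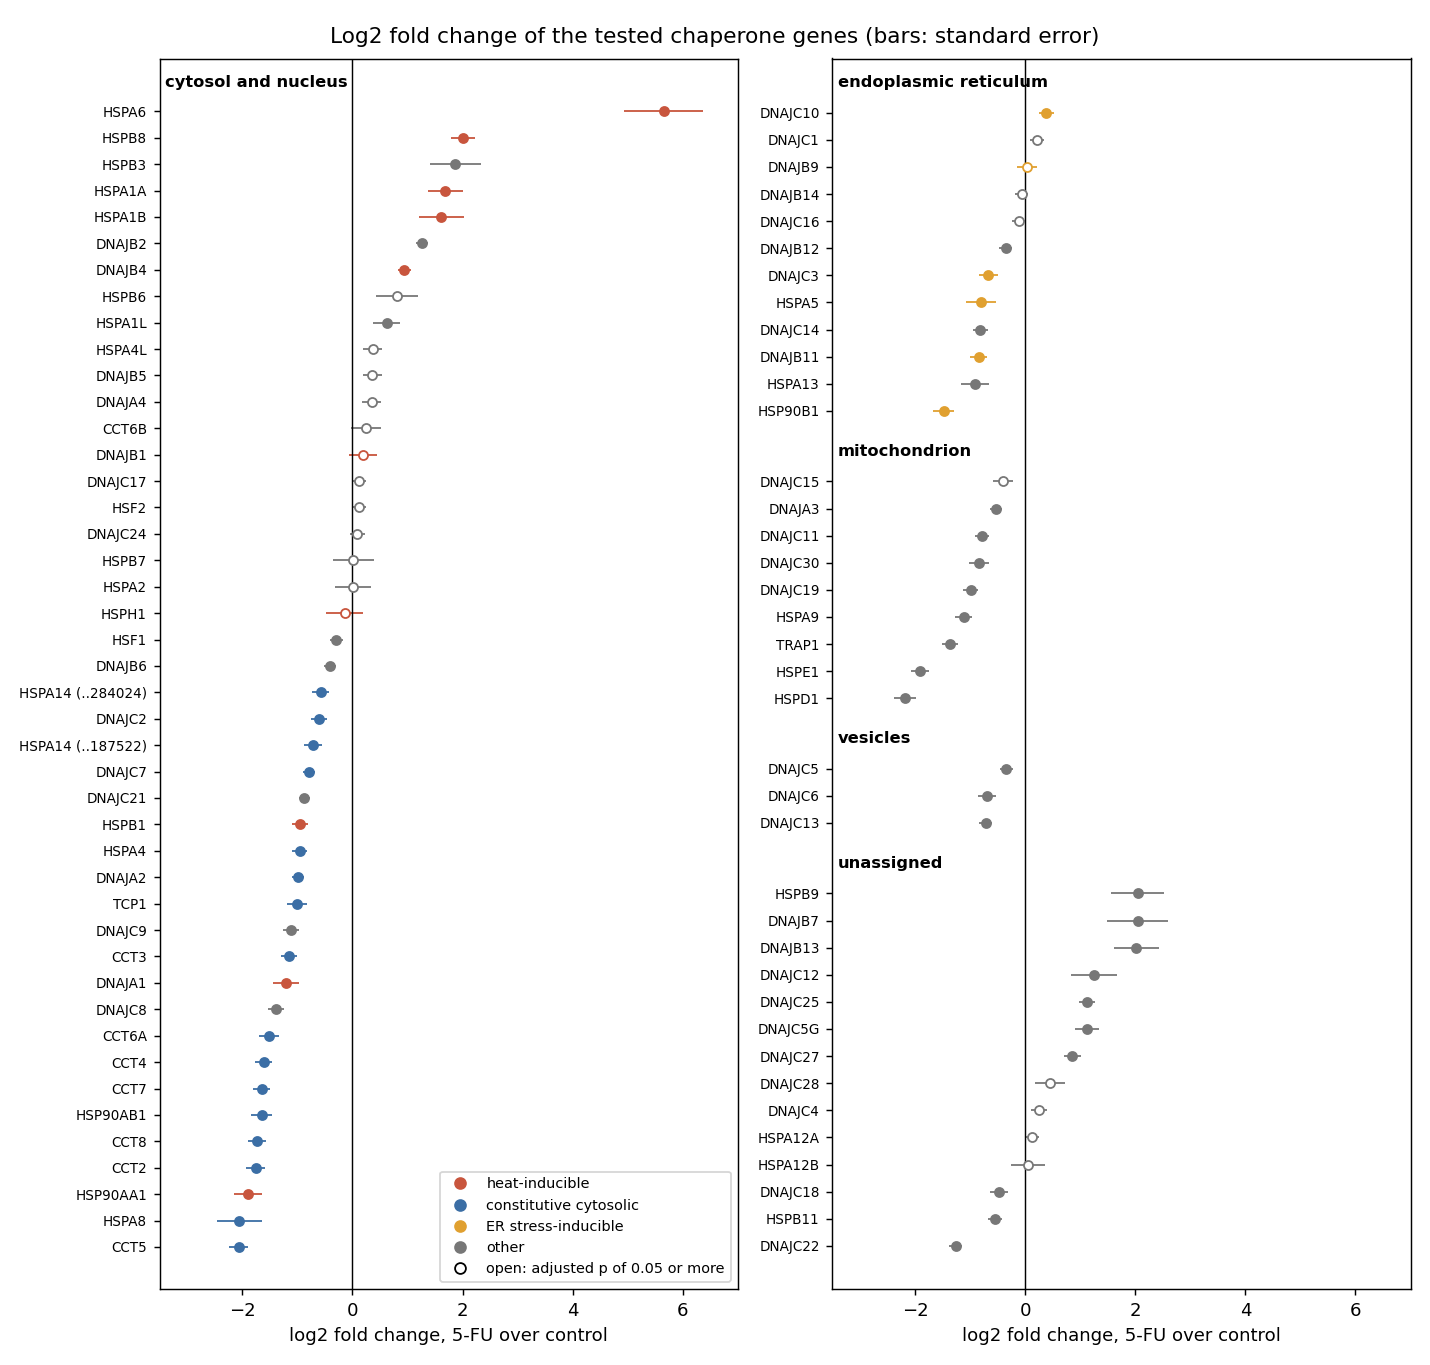
Log2 fold change of 5-FU over control for each of the 82 tested genes (points, edgeR; bars are the SE), grouped by compartment and coloured by class, with open points for genes that did not pass the test. The constitutive cytosolic genes all lie below 0, from -2.06 to -0.58, and the heat-inducible genes spread from -1.89 to 5.65.

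HSF1, the main transcription factor of the heat shock response, was at 94.6, 77.3 and 88.2 CPM in control and 66.1, 77.3 and 68.7 CPM in 5-FU libraries. Control replicate 2 and 5-FU replicate 2 were nearly level, and the other 5-FU libraries lay below all controls. It fell by 0.29 on the log2 scale (SE 0.12, edgeR adjusted p = 0.0464). This call was lost in 8 of 18 alternatives, among them leaving out control replicate 1 or 3 or 5-FU replicate 1 or 3 (edgeR adjusted p of 0.0776 to 0.125), and the sign turned with upper-quartile factors, at 0.07. HSF2, a second factor of the family that can form trimers with HSF1, was at 21.5, 22.4 and 22.9 CPM in control and 27.0, 21.8 and 24.0 CPM in 5-FU libraries, and the groups overlapped (log2 fold change 0.12, SE 0.13, edgeR adjusted p = 0.414). With upper-quartile factors, and with a minimum mean count of 50, HSF2 was called higher (0.48 and 0.37), and its sign turned in 4 other alternatives.

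The promoters were read for the letters of the heat shock element, an array of GAA units in alternating orientation. RefSeq promoters (GRCh38.p14, 250 bases before to 50 after the start) were found for 77 of 88 chaperone symbols. A run of 3 units (GAA, 2 bases of any kind, TTC, 2 bases of any kind, GAA) on either strand was present in 0.490% of the 35116 promoters in the table, or for 0.608% of its 27305 genes, and in 7 of the 77 chaperones (9.09%), which were HSPA6, HSPA8, HSP90AA1, HSP90AB1, HSPD1, DNAJA1 and DNAJB6. HSPA6 rose and the other 6 fell. A run of 2 units, GAANNTTC, is contained in the longer motif and was present in 6.77% of all promoters and for 8.21% of all genes. It was found in 19 of the 77 chaperones (24.7%) and in 8 of the 10 heat-inducible genes, all but DNAJB4 and HSPH1. The other order, TTCNNGAA, is also contained in the longer motif and was present in 7.74% of all promoters and for 9.46% of all genes. This order was found in 15 of the 77 chaperones (19.5%) and in 4 of the 10 heat-inducible genes: DNAJA1, DNAJB4, HSP90AA1 and HSPA6. The stretches below show the letters in 2 genes that rose (HSPA6, and HSPA1B with 2 units only) and 3 that fell; capitals mark the motif on either strand, sequences run 5′ to 3′ on the gene's strand, and a match describes the letters and not a bound site.
HSPA6 (chr1:161524440-161524539, +): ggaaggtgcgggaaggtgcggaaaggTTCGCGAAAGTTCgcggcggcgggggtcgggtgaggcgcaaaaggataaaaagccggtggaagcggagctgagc
HSPA1B (chr6:31827613-31827712, +): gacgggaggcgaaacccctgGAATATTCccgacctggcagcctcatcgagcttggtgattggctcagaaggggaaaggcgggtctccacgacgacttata
HSPA8 (chr11:123062159-123062386, -): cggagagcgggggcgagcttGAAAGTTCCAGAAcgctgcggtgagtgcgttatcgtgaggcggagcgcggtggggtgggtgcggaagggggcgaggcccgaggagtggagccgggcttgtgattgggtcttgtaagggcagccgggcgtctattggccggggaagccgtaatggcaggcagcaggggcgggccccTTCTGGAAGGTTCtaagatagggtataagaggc
HSP90AA1 (chr14:102087053-102087152, -): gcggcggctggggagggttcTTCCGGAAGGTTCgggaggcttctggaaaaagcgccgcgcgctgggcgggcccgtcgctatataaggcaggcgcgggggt
HSP90AB1 (chr6:44247758-44247863, +): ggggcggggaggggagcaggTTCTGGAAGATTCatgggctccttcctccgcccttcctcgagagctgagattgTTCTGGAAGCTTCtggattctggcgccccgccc
HSPA8 and HSP90AB1 each hold 2 such runs in the window, and HSPA6 and HSP90AA1 each hold 1.

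Of the 10 heat-inducible genes, 5 rose, 3 fell and 2 did not pass the test, with a median log2 fold change of 0.57; group ranges were apart for 8 of them. The shares over all tested genes were 36.3% higher, 33.9% lower and 74.3% with group ranges apart. By level, 6 of the 10 were in the highest group, in which 17.8% of all genes rose and 60.3% fell. The next group held 1 (20.7% rose and 53.5% fell) and the middle group 3 (30.9% and 38.2%). Of the 5 that rose, only HSPA1B was in the highest group. HSPA6 (ENSG00000173110, chromosome 1, 161524540 to 161526910, + strand; all positions are on GRCh38), an HSP70 that is nearly silent in unstressed cells, had counts of 28, 7 and 23 without and 476, 302 and 2030 with 5-FU, or 1.26, 0.316 and 1.13 against 24.2, 15.8 and 96.1 CPM. Every 5-FU library was far above every control, and 5-FU replicate 3 was the highest. The difference was 50.3-fold (log2 fold change 5.65, SE 0.72, edgeR adjusted p = 3.48e-05), and without 5-FU replicate 3 the log2 value was 4.44.

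HSPA1B (ENSG00000204388, chromosome 6, 31827735 to 31830255, + strand) and HSPA1A (ENSG00000204389, chromosome 6, 31815464 to 31817946, + strand) encode the classic inducible HSP70. HSPA1B was at 54.7, 22.6 and 59.7 CPM in control and 125, 65.7 and 227 CPM in 5-FU libraries. HSPA1A was at 3.95, 1.90 and 4.10 CPM against 8.10, 8.82 and 15.1 CPM. In both genes control replicate 2 was lowest, 5-FU replicate 3 was highest and the groups did not overlap. The log2 fold change was 1.61 for HSPA1B (SE 0.41, edgeR adjusted p = 0.00423, not passed on unfiltered log2(FPKM + 1), where it was 1.36) and 1.69 for HSPA1A (SE 0.31, edgeR adjusted p = 0.000543). The genes are near copies: 72.6% of the 50-base windows of HSPA1A and 73.5% of those of HSPA1B also occur in another gene's transcripts, so their split is uncertain. Their sum was 58.6, 24.4 and 63.8 CPM in control and 133, 74.5 and 242 CPM in 5-FU libraries, 3.06-fold higher. The sum may also miss reads, since the handling of multi-mapping reads is not given. The gene AL671762.1 shares 33.8% of the windows of HSPA1A and 35.3% of those of HSPA1B.

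HSPB8, a small heat shock protein that works with BAG3 in selective autophagy of misfolded proteins, was at 3.27, 4.34 and 3.11 CPM in control and 10.8, 16.4 and 16.1 CPM in 5-FU libraries. It rose 4.04-fold (log2 fold change 2.01, SE 0.22, edgeR adjusted p = 1.2e-05). DNAJB4, a J protein partner of HSP70, was at 34.3, 29.9 and 36.3 CPM against 66.3, 63.7 and 63.0 CPM, with little spread in either group. It rose by 0.94 on the log2 scale (SE 0.12, edgeR adjusted p = 3.05e-05).

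The other genes of the heat-inducible class did not rise. HSPD1 and HSPE1, described below with the mitochondrion, were not put in this class, and both fell. HSP90AA1 (ENSG00000080824, chromosome 14, 102080738 to 102139699, - strand), the inducible cytosolic HSP90, was at 1983, 1491 and 3041 CPM in control and 573, 477 and 705 CPM in 5-FU libraries. Even the lowest control was over the highest 5-FU library, with a log2 fold change of -1.89 (SE 0.25, edgeR adjusted p = 5.03e-05). DNAJA1, a farnesylated J protein, was at 186, 90.8 and 192 CPM against 60.5, 63.9 and 77.9 CPM (log2 fold change -1.21, SE 0.24, edgeR adjusted p = 0.000774). HSPB1, the small heat shock protein also called HSP27, was at 271, 229 and 339 CPM against 143, 145 and 145 CPM (log2 fold change -0.95, SE 0.15, edgeR adjusted p = 0.000154). In both genes all 5-FU libraries lay below all controls.

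Groups overlapped for the remaining pair. DNAJB1, the main inducible J protein of the cytosol, was at 191, 129 and 211 CPM in control and 173, 135 and 298 CPM in 5-FU libraries (log2 fold change 0.19, SE 0.26, edgeR adjusted p = 0.523). HSPH1, the inducible HSP110, was at 240.1, 101 and 325 CPM against 226, 134 and 243 CPM (log2 fold change -0.14, SE 0.34, edgeR adjusted p = 0.721). The sign of both values turned when certain libraries were left out: DNAJB1 was at -0.22 without 5-FU replicate 3, and HSPH1 at 0.20 without control replicate 3.

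**Figure D2:**
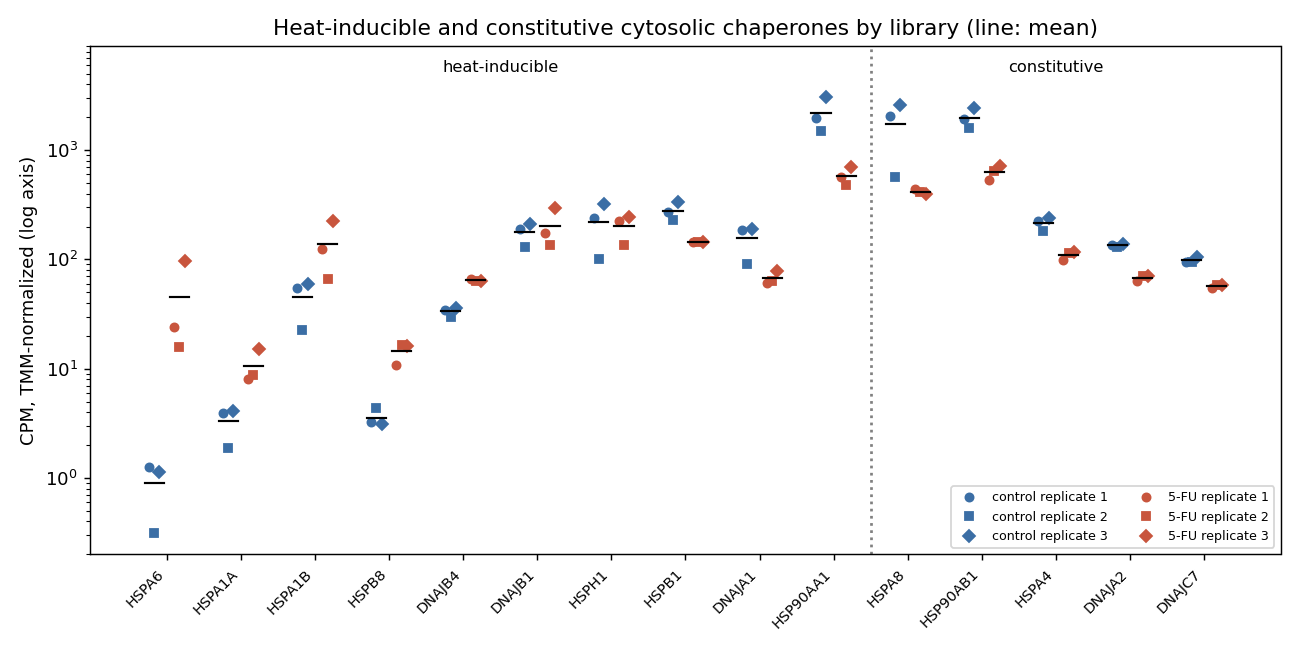
Level of the 10 heat-inducible and of 5 constitutive cytosolic genes in every library (CPM, log axis), with 3 control and 3 5-FU points per gene and the group mean as a line. HSPA6, HSPA1A, HSPA1B, HSPB8 and DNAJB4 have all 5-FU points above all control points, DNAJB1 and HSPH1 overlap, and the other 3 heat-inducible and the 5 constitutive genes have them below.

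Libraries of a group differed in these genes together. Control replicate 2 was the lowest control for 9 of the 10 heat-inducible and 15 of the 16 constitutive cytosolic genes, against 40.2% of all tested genes. Control replicate 3 was the highest control for 16 of the 16 constitutive genes, against 33.9% of all. In the treated group, 5-FU replicate 3 was the highest for 7 of the 10 heat-inducible genes, against 31.9% of all. The part of these libraries in the results was tested by leaving each out: the 5 heat-inducible genes called higher and the 3 called lower kept those numbers in all 6 such fits.

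All 16 constitutive cytosolic genes fell, at a median log2 fold change of -1.34 and over a range from -2.06 to -0.58. Group ranges were apart for all 16, against 74.3% of all tested genes. Of the 16, 13 were in the highest group of level, in which 60.3% of all genes fell with a median of -0.53. Their summed level was 7402, 5102 and 9022 CPM in control and 2085, 2419 and 2529 CPM in 5-FU libraries, 3.06-fold lower. With upper-quartile factors 13 of them passed the test, DNAJC2 and both entries of HSPA14 being the exceptions, and with a minimum mean count of 50, 15 did.

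HSPA8 (ENSG00000109971, chromosome 11, 123057489 to 123063230, - strand), the constitutive cytosolic HSP70 that also strips clathrin from vesicles, was at 2037, 563 and 2589.9 CPM in control and 441, 417 and 393 CPM in 5-FU libraries. Control replicate 2 stood far below the other controls yet above all 5-FU libraries, which were close together. HSPA8 had a log2 fold change of -2.05 (SE 0.41, edgeR adjusted p = 0.000835), which was -2.51 without control replicate 2 (edgeR adjusted p = 1.7e-06). HSP90AB1 (ENSG00000096384, chromosome 6, 44246166 to 44253888, + strand), the constitutive HSP90, was at 1927, 1589 and 2441 CPM against 537, 639.7 and 721 CPM. It fell by 1.65 on the log2 scale (SE 0.19, edgeR adjusted p = 1.94e-05), with the groups far apart.

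HSPA4, an HSP110-type exchange factor for HSP70, was at 225, 182 and 238 CPM in control and 98.9, 115 and 118 CPM in 5-FU libraries (log2 fold change -0.96, SE 0.14, edgeR adjusted p = 8.15e-05). DNAJA2, a J protein partner of HSPA8, was at 134, 131 and 139.5 CPM against 63.3, 70.0 and 70.2 CPM (log2 fold change -0.99, SE 0.11, edgeR adjusted p = 1.33e-05). Both sets of controls were above the 5-FU libraries with little spread. DNAJC7, a J protein with tetratricopeptide repeats that binds HSP70 and HSP90, had a log2 fold change of -0.79. DNAJC2 and HSPA14 act on the ribosome, where they meet nascent chains. DNAJC2 fell by 0.61 on the log2 scale, and HSPA14, listed under 2 identifiers that share 22.2% of the windows of the first, fell by 0.72 and 0.58.

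Per length, the most abundant chaperones were largely those that fell. The deposited length covers all annotated exons of a gene, 4849 bases for HSPA8 and 2980 bases for HSP90AB1. Their longest transcripts hold 2414 and 2625 windows of 50 bases, so the order between genes depends on the length used. HSP90AB1 was the most abundant chaperone in both groups, at 666 ± 144 RPKM in control and 212 ± 30.9 RPKM in 5-FU libraries (SD, n = 3 each). HSP90AA1 was the next in control at 414 ± 151 RPKM, with HSPA8 at 357 ± 216 RPKM and HSPA5 at 329 ± 25.2 RPKM, and these 3 did not differ beyond their spread. In the 5-FU libraries HSPA5 was the next at 189 ± 87.5 RPKM, HSP90AA1 at 112 ± 21.7 RPKM and HSPB1 at 88.4 ± 0.614 RPKM, and HSPA8 had moved from rank 3 to rank 6 at 86.0 ± 4.87 RPKM. Larger moves lay lower in the order of mean levels: HSPA6 went from rank 74 to 23, HSPA1B from 30 to 8 and DNAJB1 from 20 to 9, while CCT5 went from 15 to 27 and HSPE1 from 18 to 34.

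The balance of an inducible gene against its constitutive counterpart was compared within each library, where scaling cancels, as a log2 ratio of counts with 0.5 added. HSPA6 over HSPA8 was -10.64, -10.70 and -11.13 in control and -4.18, -4.72 and -2.03 in 5-FU libraries, a difference of 7.17, or 144-fold, which was 6.37 without 5-FU replicate 3. The sum of HSPA1A and HSPA1B over HSPA8 was -5.12, -4.52 and -5.34 against -1.72, -2.48 and -0.70, a difference of 3.36, or 10.3-fold. In both ratios every 5-FU library was above every control, and the exact two-sided permutation test gave p = 0.1, the smallest that 3 against 3 allows, or 0.25 after Benjamini-Hochberg adjustment over the 5 ratios.

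The other 3 ratios overlapped between groups. HSP90AA1 over HSP90AB1 was 0.04, -0.09 and 0.32 in control and 0.09, -0.42 and -0.03 in 5-FU libraries, a difference of -0.21 (exact permutation p = 0.5, adjusted 0.625). HSPH1 over HSPA4 was 0.09, -0.85 and 0.45 against 1.19, 0.23 and 1.04, a difference of 0.92 (exact permutation p = 0.2, adjusted 0.333). DNAJA1 over DNAJA2 was 0.47, -0.53 and 0.46 against -0.06, -0.13 and 0.15, a difference of -0.15 (exact permutation p = 0.8, adjusted 0.8). The HSP70 ratios were thus higher in all 5-FU libraries, whereas in the HSP90 and DNAJA pairs both partners fell.

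**Figure D3:**
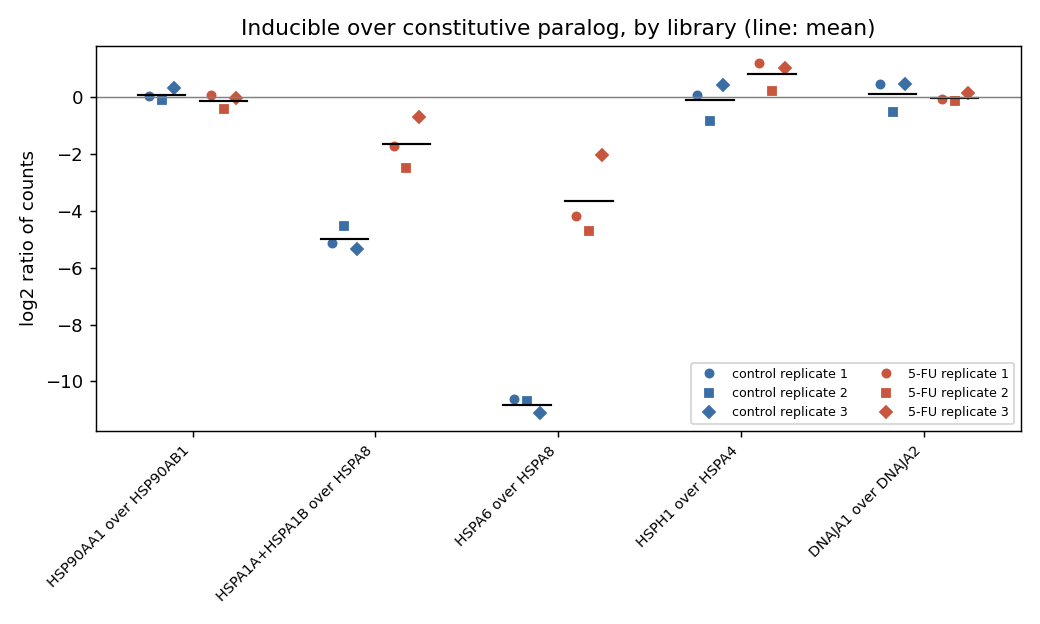
Log2 ratio of counts of an inducible gene over its constitutive counterpart in each library, with 3 control and 3 5-FU points per ratio and the group mean as a line. The HSPA6 and HSPA1A plus HSPA1B ratios over HSPA8 separate the groups, by 7.17 and 3.36, and the other 3 ratios overlap.

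The CCT ring, a chaperonin of 8 different subunits in each of its stacked rings, folds actin and tubulin. Of 9 tested genes, 8 fell and CCT6B did not pass the test, with a median log2 fold change of -1.61. Group ranges were apart for 8 of the 9, against 74.3% of all tested genes. All 8 that fell were in the highest group of level, in which 60.3% of all genes fell with a median of -0.53. CCT5 (ENSG00000150753, chromosome 5, 10249921 to 10266412, + strand) was at 372, 333 and 451 CPM in control and 72.5, 102 and 103 CPM in 5-FU libraries. It fell by 2.06 on the log2 scale (SE 0.17, edgeR adjusted p = 2.66e-06). CCT7 was at 588, 526 and 656 CPM against 154, 199.6 and 211 CPM, and CCT2 at 311, 255 and 363 CPM against 72.9, 97.9 and 105 CPM. In all 3 genes the lowest control was well above the highest 5-FU library.

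The subunits did not fall equally. TCP1, the alpha subunit, was at 343, 238 and 400.3 CPM in control and 142, 158 and 189 CPM in 5-FU libraries, a log2 fold change of -1.01 (SE 0.19, edgeR adjusted p = 0.000543). CCT3 was at 235, 212 and 294 CPM against 105, 116 and 112 CPM (log2 fold change -1.16, SE 0.14, edgeR adjusted p = 2.57e-05). CCT8, CCT4 and CCT6A had log2 fold changes of -1.73, -1.61 and -1.52. The 8 subunits enter the ring in equal number, so each was also expressed as its share of their summed RPKM, a composition in which a rise of 1 share lowers others. The size of a share also depends on the deposited length of each gene. TCP1 took 8.89% ± 1.05 in control and 13.2% ± 0.923 in 5-FU libraries, and CCT3 8.31% ± 0.277 and 11.1% ± 1.24, with groups apart in both. CCT5 took 8.93% ± 0.175 and 6.27% ± 0.330, CCT2 9.68% ± 0.246 and 8.43% ± 0.337, and CCT8 13.4% ± 0.883 and 11.8% ± 0.747, also with groups apart. The shares of CCT7 (22.3% ± 1.01 and 20.9% ± 0.305) and CCT4 (13.8% ± 0.0866 and 13.3% ± 0.496) were also lower in every 5-FU library, and that of CCT6A overlapped. CCT7 was the most abundant subunit per length in both groups, at 164 ± 18.1 RPKM in control and 52.4 ± 8.35 RPKM in 5-FU libraries. CCT6B, a testis paralog of CCT6A, was at 4.26, 5.83 and 3.06 CPM against 3.87, 5.27 and 6.44 CPM, with groups overlapping. Prefoldin subunits and phosducin-like cofactors, which deliver or shape CCT substrates, were a list of 8 other genes, and all 8 fell (median -1.43, with 5 in the second highest group of level, in which 53.5% of all genes fell), among them VBP1 (-1.73), PFDN1 (-1.66) and PDCL (-1.46).

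**Figure D4:**
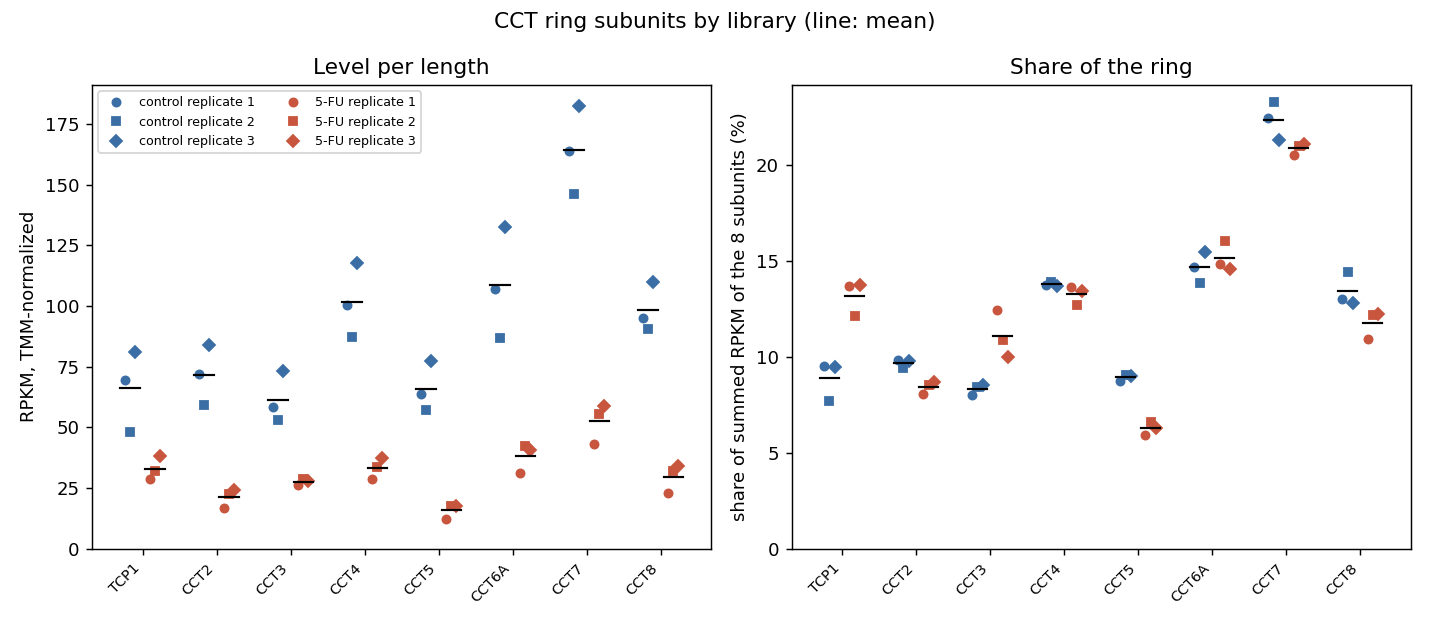
Left, level of each of the 8 CCT subunits per length (RPKM), and right, its share of their summed RPKM (%), for 3 control and 3 5-FU libraries with the group mean as a line. All 8 levels are lower in the 5-FU libraries, while the shares of TCP1 and CCT3 are higher, those of CCT2, CCT4, CCT5, CCT7 and CCT8 lower, and those of CCT6A overlap.

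In the ER, 7 of 12 genes fell, 1 rose and 4 did not pass the test, with a median log2 fold change of -0.51. Group ranges were apart for 7 of the 12, against 74.3% of all tested genes. The 58.3% that fell lie near the 60.3% and 53.5% of all genes in the highest and next groups of level, which hold 6 and 4 of the 12. Only 3 fell with upper-quartile factors and 4 at a minimum mean count of 50. HSPA5 (ENSG00000044574, chromosome 9, 125234853 to 125241330, - strand), known as BiP, the ER HSP70 and sensor partner of the unfolded protein response, was at 1244, 1218 and 1400.2 CPM in control and 643, 454 and 1118 CPM in 5-FU libraries. The groups did not overlap, but 5-FU replicate 3 was near the controls. HSPA5 fell by 0.80 on the log2 scale (SE 0.27, edgeR adjusted p = 0.0177). The value was -1.26 without 5-FU replicate 3 and did not pass without 5-FU replicate 1 (-0.69, edgeR adjusted p = 0.0585) or 2 (-0.55, edgeR adjusted p = 0.0761). It also did not pass with upper-quartile factors (-0.44), a minimum mean count of 50 (-0.55) or unfiltered log2(FPKM + 1) (-1.04).

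HSP90B1, the ER HSP90 known as GRP94, was at 1134, 1066 and 1184 CPM in control and 368, 306 and 539 CPM in 5-FU libraries (log2 fold change -1.48, SE 0.20, edgeR adjusted p = 5.15e-05). DNAJB11, an ER J protein partner of BiP, was at 81.5, 73.6 and 91.2 CPM against 38.9, 41.4 and 57.3 CPM (log2 fold change -0.84, SE 0.16, edgeR adjusted p = 0.000554). DNAJC3, an ER J protein that also limits the PERK kinase, was at 157, 131 and 142 CPM against 83.6, 68.2 and 119 CPM (log2 fold change -0.67, SE 0.18, edgeR adjusted p = 0.0059), a call lost with upper-quartile factors (-0.31) and at a minimum mean count of 50 (-0.42). In all 3 the controls were higher, and 5-FU replicate 3 was the highest of the treated libraries. DNAJC14, an ER membrane J protein, was at 24.0, 28.8 and 30.3 CPM against 14.5, 16.3 and 16.7 CPM, and fell by 0.81 on the log2 scale. DNAJC10, a disulfide reductase J protein called ERdj5, was the only ER gene that rose, from 199, 154 and 193 CPM to 227, 240.2 and 249 CPM (log2 fold change 0.39, SE 0.13, edgeR adjusted p = 0.02). That call was lost in 8 of 18 alternatives, including without control replicate 2 or 3 or 5-FU replicate 2 or 3 (edgeR adjusted p from 0.0511 to 0.112).

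The 6 ER stress-inducible genes held 4 that fell, 1 that rose and DNAJB9, named after its value was seen, which did not pass (0.04). Of these 6, 5 were in the highest group of level, in which 60.3% of all genes fell and 17.8% rose. In the 5-FU group, replicate 3 was the highest library for all 6 of them and for 10 of the 12 ER genes, against 31.9% of all tested genes. The ER stress element (CCAAT, 9 bases of any kind, CCACG) on either strand was present in 0.0769% of all promoters, or for 0.0916% of genes, and in those of HSPA5 and HSP90B1, with 11 of the 12 ER genes matched. It is shown in capitals in the stretches of these 2 genes, which both fell.
HSPA5 (chr9:125241344-125241443, -): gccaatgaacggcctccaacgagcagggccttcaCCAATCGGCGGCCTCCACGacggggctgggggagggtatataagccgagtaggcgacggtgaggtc
HSP90B1 (chr12:103930196-103930359, +): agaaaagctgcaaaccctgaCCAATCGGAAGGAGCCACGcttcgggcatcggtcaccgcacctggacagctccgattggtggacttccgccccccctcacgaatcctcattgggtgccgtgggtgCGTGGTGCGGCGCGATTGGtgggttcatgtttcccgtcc
Of 16 other ER chaperones and cofactors, 15 fell (median -1.21; 13 were in the highest group of level), with PDIA6 at -2.00, SDF2L1 at -2.04 and TXNDC5 at -1.99; SEC63 did not pass.

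In the mitochondrion, 8 of 9 genes fell and DNAJC15 did not pass the test (-0.40, edgeR adjusted p = 0.0608); none of the 9 group ranges overlapped, and the median log2 fold change was -0.99. Over all tested genes 33.9% fell and 74.3% had group ranges that were apart. In the highest group of level, which holds 5 of the 9, 60.3% of all genes fell. HSPD1 (ENSG00000144381, chromosome 2, 197486581 to 197516737, - strand), the mitochondrial chaperonin HSP60, was at 1258, 963 and 1429 CPM in control and 213, 263 and 328 CPM in 5-FU libraries. It had the largest decrease of all tested chaperones, a log2 fold change of -2.18 (SE 0.20, edgeR adjusted p = 4.43e-06). HSPE1 (ENSG00000115541, chromosome 2, 197499994 to 197503457, + strand), its HSP10 lid, is encoded beside it on the other strand and was at 104, 72.9 and 109.9 CPM against 23.1, 25.2 and 28.5 CPM (log2 fold change -1.90, SE 0.16, edgeR adjusted p = 3.17e-06). The stretch of the HSPD1 promoter shows 2 overlapping heat shock element runs in capitals.
HSPD1 (chr2:197499991-197500090, -): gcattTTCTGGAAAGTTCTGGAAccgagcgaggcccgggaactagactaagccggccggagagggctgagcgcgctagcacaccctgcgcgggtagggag
TRAP1, the mitochondrial HSP90, was at 173, 159 and 196 CPM in control and 56.3, 73.2 and 74.8 CPM in 5-FU libraries (log2 fold change -1.37, SE 0.14, edgeR adjusted p = 8.91e-06). HSPA9, or mortalin, the HSP70 of the mitochondrial import motor, was at 658, 702 and 711 CPM against 275, 304 and 376 CPM (log2 fold change -1.12, SE 0.15, edgeR adjusted p = 4.99e-05). For HSPD1, HSPE1, TRAP1 and HSPA9 every control was above every 5-FU library. Of 12 other mitochondrial chaperones and proteases, 10 fell, with CLPP at -1.83 and GRPEL1, the exchange factor of mortalin, at -1.55, and SPG7, the paraplegin protease subunit, rose (1.63). Of these 12, 6 were in the highest and 4 in the next group of level, where 60.3% and 53.5% of all genes fell.

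**Figure D5:**
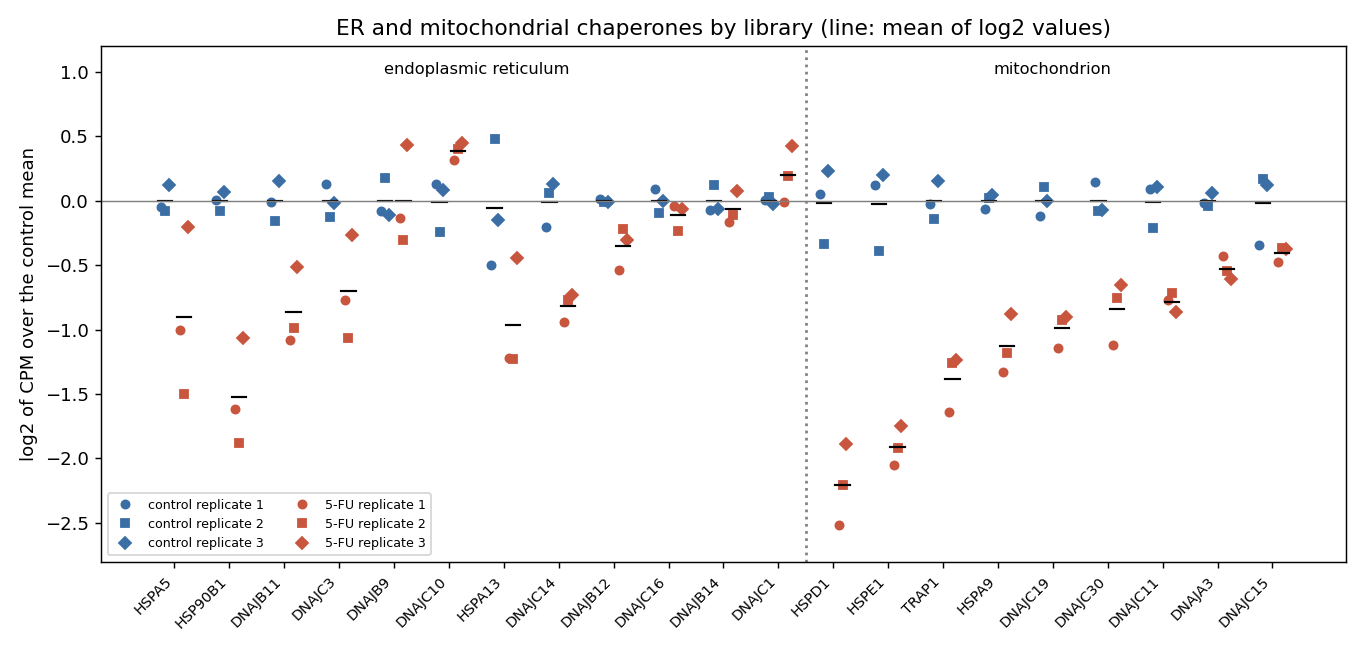
Level of the 12 ER and 9 mitochondrial genes in every library as the log2 of CPM over the mean of the controls, with 3 control and 3 5-FU points per gene and the mean of the log2 values as a line. The groups are apart for all 9 mitochondrial genes and for 7 of the 12 ER genes, among them HSP90B1 and HSPA5. The HSPA5 point of 5-FU replicate 3 (1118 CPM) lies just under the lowest control (1218 CPM).

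Among J proteins with other or unassigned sites, decreases and increases both occurred. By family, 3 of 4 DNAJA, 3 of 11 DNAJB and 15 of 27 DNAJC tested genes fell, and 0, 4 and 5 rose, against 33.9% of all tested genes lower and 36.3% higher. The 36.4% of tested DNAJB genes that rose is close to the share of all genes. The 3 tested vesicle genes fell. DNAJC13, an endosomal J protein, was at 78.4, 69.6 and 74.6 CPM in control and 44.0, 42.0 and 49.9 CPM in 5-FU libraries (log2 fold change -0.71), DNAJC6, the clathrin uncoating factor auxilin, had -0.69 (not passed with upper-quartile factors, -0.34), and DNAJC5, the cysteine string protein, had -0.34 (edgeR adjusted p = 0.0178), a call lost in 6 of 18 alternatives: without control replicate 1 or 5-FU replicate 2 (edgeR adjusted p of 0.0525 and 0.0678), with the replicate block, with plain library totals (-0.23), at a minimum mean count of 50 (-0.089) and with upper-quartile factors (0.020). DNAJC22 was at 63.5, 66.6 and 57.0 CPM against 23.8, 28.1 and 26.3 CPM (log2 fold change -1.26, SE 0.12, edgeR adjusted p = 5.89e-06). HSPB11, an intraflagellar transport protein, had -0.54 (not passed with upper-quartile factors, -0.18), and DNAJC18 had -0.47, a call lost in 6 of 18 alternatives, among them without control replicate 2 or 5-FU replicate 1 or 2 (edgeR adjusted p of 0.0557 to 0.0855).

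DNAJB2, a J protein with ubiquitin-binding motifs, was at 32.2, 36.1 and 37.5 CPM in control and 83.4, 87.7 and 82.8 CPM in 5-FU libraries. It rose 2.40-fold with little spread (log2 fold change 1.26, SE 0.11, edgeR adjusted p = 3.92e-06). DNAJC25 was at 12.4, 10.3 and 12.4 CPM against 27.6, 23.6 and 25.8 CPM (log2 fold change 1.13), and DNAJC27, a Rab-like GTPase with a J domain, had 0.86. DNAJC5G, a testis relative of DNAJC5, and DNAJB13, a radial spoke protein of sperm and cilia, rose at low level. The counts of DNAJB13 were 8, 13 and 11 without and 61, 31 and 29 with 5-FU. The other 5 genes that rose were HSPB3, HSPB9, DNAJB7, DNAJC12 and HSPA1L, named after their values were seen, with log2 fold changes of 0.62 to 2.05 and control means of 0.172 to 2.32 CPM.

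The 7 genes with too few counts to test were CCT8L2, DNAJB8, DNAJC5B, HSPB2 and the readthrough genes DNAJC25-GNG10, HSPB2-C11orf52 and HSPE1-MOB4. HSPB2, a muscle small heat shock protein, had counts of 0, 1 and 0 without and 12, 9 and 8 with 5-FU, and 46.9% of its exonic bases overlap CRYAB on the other strand.

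Of 24 HSP90 and HSP70 co-chaperones, 19 fell, 0 rose and 5 did not pass, with a median of -0.99. Their levels placed 12 in the highest and 11 in the next group of level, where 60.3% and 53.5% of all genes fell. FKBP5, an immunophilin of steroid receptor complexes, had a log2 fold change of -2.23, HSPBP1, an HSP70 exchange factor, -1.57, and BAG1, another, -1.33. Of 15 other genes listed as targets of heat shock factors, 8 of which are also in that list, 9 fell, 2 rose and 4 did not pass, with a median of -1.31. Of these 15, 9 were in the highest and 4 in the next group of level, where 60.3% and 53.5% of all genes fell. CRYAB, the small heat shock protein alpha-B crystallin, was at 1.08, 0.859 and 1.48 CPM in control and 5.25, 6.42 and 15.6 CPM in 5-FU libraries (log2 fold change 3.00, SE 0.42, edgeR adjusted p = 7.13e-05). ZFAND2A, an arsenite-inducible regulator of the proteasome, was at 12.5, 12.2 and 13.1 CPM against 21.9, 16.8 and 32.0 CPM (log2 fold change 0.90, SE 0.21, edgeR adjusted p = 0.00218). Both were named after their values were seen. Other genes in the list fell, among them HSBP1 (-1.77), UBB (-1.59) and CACYBP (-2.01).

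Read sharing limits some of these values. Of the 89 genes, 46 share exonic bases with another annotated gene. Among them are HSPA1B (36.5% on the same strand) and DNAJC14 (23.2% on the same and 34.9% on the other strand). CCT5 (30.1% on the other strand) and TRAP1 (29.3% on the other strand) are further examples. HSPA6 shares 45.5% of its windows with HSPA7, whose counts summed to 7 without and 27 with 5-FU, against 58 and 2808 for HSPA6. The 26 pseudogenes of HSPE1 held 1.59% of its counts in control and 11.4% in 5-FU libraries, and the 17 of HSPD1 held 1.17% and 2.60%.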

How the data were processed

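The authors deposited whole-number counts of 58735 genes in 6 libraries. The build was GRCh38 and the tools were DESeq2 1.16.1, featureCounts 1.5.0-p3 and HISAT2 2.0.5, per the submitters' processing notes; per the labels' protocols, RNA came from TRIzol and libraries from the NEBNext Ultra RNA kit. The strand setting, like the handling of multi-mapping reads, is not given in the sources used here. FPKM values deposited by the authors, scaled by gene length and 1 constant per library, served alternatives only.

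All 19771 genes passing filterByExpr (minimum count 10, minimum total 15) were fitted with edgeR 4.0.16 (R 4.3.3) by the quasi-likelihood test with TMM factors, group as the only term and Benjamini-Hochberg adjustment, calling an adjusted p under 0.05; the test was checked on simulated counts. The SE is the size of the unshrunk coefficient over the square root of F. RPKM is CPM per kilobase of deposited gene length. Ratios used a two-sided exact permutation test, whose smallest p here is 0.1. Total counts of 18459939 to 23495607 limit the precision of low genes.

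Alternatives were DESeq2 size factors, upper-quartile factors, plain totals, no mitochondrially encoded genes, a minimum mean count of 50, no filter on low counts, DESeq2 1.42.0, limma-voom (limma 3.58.1), limma-trend with log2(FPKM + 1) and with log2(FPKM + 0.1), with FPKM of at least 1 in 3 samples or unfiltered, the replicate number as a block, and leaving out each library. Promoters are RefSeq (GRCh38.p14); exon overlap and 50-base windows used GENCODE annotation. The text names HSF1, HSF2, all heat-inducible, constitutive cytosolic and CCT genes, per compartment the 4 called genes of smallest p in each direction and the 2 most abundant per length, the 5 largest changes each way at a mean count of at least 20, and up to 4 called genes per other list. Of the genes this rule gives, 1 is not reported here, though it counts in the total of its list. Genes, classes and lists were chosen with earlier results of these data known.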

Additional observations from a re-analysis of the deposited data

How the results depend on the processing

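The heat-inducible genes lower (3) and the CCT genes lower (8) kept their numbers in all 18 alternatives; the heat-inducible genes higher were 4 to 5, the constitutive cytosolic genes lower 13 to 16 and the mitochondrial genes lower 7 to 9. Chaperones higher, 16 with TMM factors, were 28 with upper-quartile factors and 9 with either filtered FPKM scale; chaperones lower were 31 to 46. ER genes lower, 7, were 3 with upper-quartile factors and 4 at a minimum mean count of 50. Leaving out each library gave 15 to 17 chaperones higher and 41 to 44 lower, 5 to 7 ER and 8 to 9 mitochondrial genes lower; the cause was not tested. Signs turned for DNAJB1 on the FPKM scales (-0.0034, -0.0042 and -0.0034), without control replicate 2 (-0.03) and without 5-FU replicate 3 (-0.22; up to 0.41 without another library); for HSPH1 with upper-quartile factors (0.24), at a minimum mean count of 50 (0.12), without control replicate 3 (0.20) and without 5-FU replicate 2 (0.07; down to -0.52 without another library); for HSF2 without a filter (-0.025) and on the FPKM scales (-0.025, -0.028 and -0.025); and with upper-quartile factors for HSF1 (0.066) and DNAJC5 (0.020). The DNAJA1 over DNAJA2 ratio, -0.15, was 0.021 without control replicate 1, 0.017 without control replicate 3 and as low as -0.48 otherwise. Over the leave-one-out settings the other ratios ranged from 6.37 to 7.71 (HSPA6 over HSPA8), 2.89 to 3.78 (HSPA1A and HSPA1B over HSPA8), 0.55 to 1.22 (HSPH1 over HSPA4) and -0.32 to -0.06 (HSP90AA1 over HSP90AB1). With the replicate number as a block, 17 chaperones were higher and 43 lower, and HSF1 (edgeR adjusted p = 0.101) and DNAJC5 (edgeR adjusted p = 0.0514) no longer passed; among the 50 named genes it changed no other call. Deviations of same-numbered libraries correlated at -0.11, -0.28 and 0.08 across genes, and those of differently numbered libraries at -0.17 to 0.22. With 3 libraries per group, this check cannot show whether the numbers pair samples.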
